A study of Mus musculus with 6 samples.

Results

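Slc24a2, Plekhh1, Unc5b and Chn2 are 4 protein-coding genes, of 24318 in the table, whose KO level was 40.1% to 49.6% of the WT level and that are not structural myelin genes. They were picked for that difference, so their KO and WT levels are given as a description without a test. All 4 were in the table and all 4 were among the 14131 genes left after genes with low counts were removed. The libraries were 3 of cultured mouse brain astrocytes labelled as knockout for ADGRB1, an adhesion G protein-coupled receptor (KO), and 3 of wild-type cultured astrocytes (WT), made from poly-A RNA. The labels give no strain, age or sex, do not say which part of the Adgrb1 gene was altered or whether every cell of the animal lacked it, and leave unsaid if each library was its own culture, so a p-value covers spread among these libraries that could be partly technical.

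The 4 products act in different ways. Slc24a2 encodes NCKX2, a plasma membrane exchanger that uses the sodium and potassium gradients to move calcium out of the cell and is best known from neurons. Unc5b encodes a receptor for netrins, the secreted guidance cues that repel or attract growing processes, and is also known from endothelium. Chn2 encodes beta-chimaerin, a protein that switches off the small GTPase Rac when diacylglycerol rises. Plekhh1 encodes a protein with pleckstrin homology, MyTH4 and FERM domains, which bind membrane lipids and the cytoskeleton. Oligodendrocytes, the glia that wrap axons in myelin, arise from precursors that also grow in astrocyte cultures, and the question asked here was whether the 4 genes follow oligodendrocyte genes from library to library.

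The 4 genes lie on different chromosomes, none of them that of Adgrb1 (chromosome 15), at positions given on GRCm38 from GENCODE M21. Slc24a2 lies on chromosome 4 at 86983124 to 87230477 (minus strand), Plekhh1 on chromosome 12 at 79029163 to 79081655 (plus strand), Unc5b on chromosome 10 at 60762593 to 60831581 (minus strand) and Chn2 on chromosome 6 at 54039554 to 54301810 (plus strand). Among the tested protein-coding genes within 500 kb, the median log2 fold change (KO over WT) was 0.01 over 6 genes around Slc24a2, -0.08 over 10 around Plekhh1, -0.04 over 6 around Unc5b and 0.19 over 7 around Chn2, and the lowest neighbour of all stood at -0.48. None of these neighbours was as low as the member beside it. The 250 bases before the most upstream RefSeq start site of each gene (GRCm38.p6, gene strand, 5′ to 3′) are shown to compare which short motifs of oligodendrocyte factors each holds. The windows are chr4:87230541-87230790 for Slc24a2, chr12:79028913-79029162 for Plekhh1, chr10:60831582-60831831 for Unc5b and chr6:54039682-54039931 for Chn2, and capitals mark a motif on either strand:
Slc24a2: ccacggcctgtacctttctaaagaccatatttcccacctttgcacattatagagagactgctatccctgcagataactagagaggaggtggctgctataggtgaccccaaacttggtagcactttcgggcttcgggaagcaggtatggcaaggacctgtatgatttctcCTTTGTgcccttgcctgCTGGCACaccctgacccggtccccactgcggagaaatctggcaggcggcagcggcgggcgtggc
Plekhh1: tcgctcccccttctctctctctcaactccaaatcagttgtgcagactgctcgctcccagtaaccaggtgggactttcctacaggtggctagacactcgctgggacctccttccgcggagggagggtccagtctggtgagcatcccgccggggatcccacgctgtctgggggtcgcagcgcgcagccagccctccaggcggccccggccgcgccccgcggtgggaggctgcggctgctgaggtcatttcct
Unc5b: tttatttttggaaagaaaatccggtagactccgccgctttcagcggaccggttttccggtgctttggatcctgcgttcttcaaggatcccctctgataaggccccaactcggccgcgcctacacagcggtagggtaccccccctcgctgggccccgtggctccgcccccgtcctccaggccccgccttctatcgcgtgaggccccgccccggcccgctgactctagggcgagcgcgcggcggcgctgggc
Chn2: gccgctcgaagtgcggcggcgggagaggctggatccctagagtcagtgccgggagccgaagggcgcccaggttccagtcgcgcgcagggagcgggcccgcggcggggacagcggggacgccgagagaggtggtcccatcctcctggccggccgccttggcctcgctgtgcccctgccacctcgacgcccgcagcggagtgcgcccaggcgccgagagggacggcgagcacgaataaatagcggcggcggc

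The motifs searched on both strands were ACAAAG and ACAATG of SOX factors such as SOX10, CTGGCAC and CTGGTAC of MYRF, the factor that turns on myelin genes, and CAGCTG, an E-box that OLIG2 and other bHLH proteins can bind. Slc24a2 held ACAAAG on the opposite strand, starting 81 bases before its start site, and CTGGCAC on its own strand at 64 bases. Plekhh1, Unc5b and Chn2 held none of the 5 motifs in the windows printed. RefSeq lists further starts for Slc24a2 (2 in all) and Chn2 (4 in all), and 4 of the 8 windows of the 4 genes held at least 1 motif, against 38.7% of 32851 promoter windows of the same length. ACAAAG alone was in 16.5% and CTGGCAC in 4.19% of all windows. The second Slc24a2 window and 2 further Chn2 windows held the other matches. A match is a run of letters and not a site, and no match says only that these letters are not in the window.

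Slc24a2 had the lowest KO share of the 4. It held 24.1, 27.7 and 26.2 CPM (counts scaled to library size with TMM factors) in KO replicates 1, 2 and 3, against 80.7, 64.3 and 49.6 CPM in WT replicates 1, 2 and 3. Every KO library lay below every WT library, and the WT libraries were spread more widely (SD 15.6 CPM) than the KO libraries (SD 1.82 CPM). The KO mean was 40.1% of the WT mean, at 26.0 ± 1.82 and 64.8 ± 15.6 CPM (SD, n = 3 each), and the log2 fold change from edgeR was -1.32 ± 0.19 (SE). Behind these levels were 460 to 526 counts per KO library and 995 to 1476 per WT library.

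Plekhh1 held 33.0, 42.2 and 34.4 CPM in the KO libraries, against 70.5, 84.2 and 72.4 CPM in the WT libraries. KO replicate 2 and WT replicate 2 were the highest of their genotypes, and the genotypes did not overlap. The means were 36.6 ± 4.96 CPM in KO and 75.7 ± 7.45 CPM in WT, a log2 fold change of -1.05 ± 0.16. Plekhh1 shares 992 exonic bases, 14.8% of its exonic length, with Pigh on the opposite strand. No source names the strand setting of the counting, so reads in those bases may belong to either gene. Pigh itself stood at 30.0 ± 2.65 CPM in KO and 33.4 ± 1.03 CPM in WT (log2 fold change -0.15 ± 0.16).

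Unc5b held 30.1, 44.4 and 34.1 CPM in the KO libraries, against 84.1, 79.6 and 65.1 CPM in the WT libraries. The means were 36.2 ± 7.40 CPM in KO and 76.3 ± 9.93 CPM in WT, a log2 fold change of -1.07 ± 0.18. KO replicate 2 was again the highest of the KO libraries and WT replicate 3 the lowest of the WT libraries, still above all KO libraries.

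Chn2 held 25.7, 24.9 and 28.0 CPM in the KO libraries, against 58.3, 58.1 and 41.9 CPM in the WT libraries. The 3 KO libraries lay close together, and WT replicate 3 stood apart from the other WT libraries. The means were 26.2 ± 1.59 CPM in KO and 52.7 ± 9.39 CPM in WT, a log2 fold change of -1.01 ± 0.18. Chn2 shares 552 exonic bases with 9130019P16Rik on the opposite strand, a transcript that held 0 counts in each KO library and 0, 0 and 4 counts in the WT libraries.

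**Figure D1:**
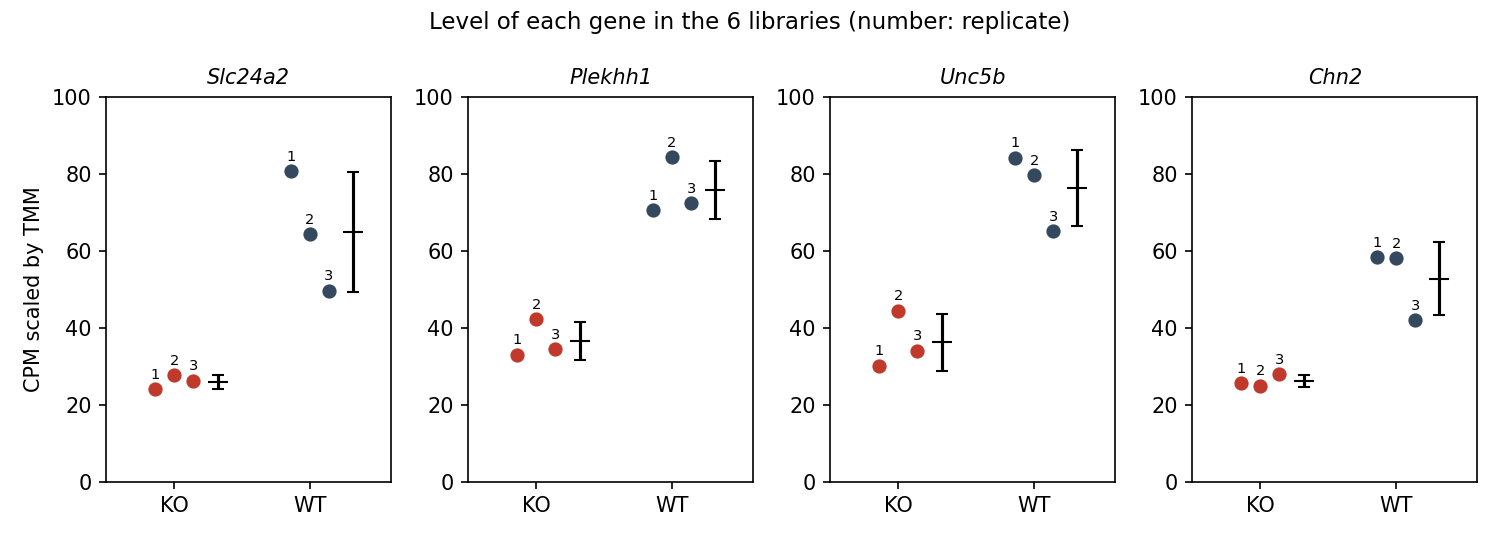
Levels of the 4 genes in CPM scaled by TMM (vertical axis) in each KO and WT library, with the mean and SD of each genotype beside the points. The KO points sit between 24.1 and 44.4 CPM and the WT points between 41.9 and 84.2 CPM, and within each gene the genotypes do not overlap.

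Per kilobase of annotated exon the order of levels in KO was Unc5b (5.78 ± 1.18 CPM per kb), Plekhh1 (5.44 ± 0.74), Chn2 (4.51 ± 0.27) and Slc24a2 (2.13 ± 0.15), and in WT it was Unc5b (12.2 ± 1.59 CPM per kb), Plekhh1 (11.3 ± 1.11), Chn2 (9.08 ± 1.62) and Slc24a2 (5.31 ± 1.27). Unc5b and Plekhh1 lay within each other's spread in both genotypes. These lengths join all annotated exons, so a gene expressed from short transcripts is understated.

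Other genes stood as low. Of 9944 genes of at least 10 CPM on average, 45 had a KO mean at or below 49.6% of the WT mean, the share of Chn2. In 31 of these the genotypes did not overlap. These counts include the 4 genes themselves and Adgrb1. Over all genes tested, 5.87% had 3 KO libraries below all 3 WT libraries, and since the 4 genes were chosen on this contrast their count of 4 of 4 is read no further. No gene of the table passed an adjusted p of 0.05 in edgeR (0% called over 14131 genes, with 541 lower and 330 higher at an unadjusted p of 0.05), while DESeq2 called 62 genes lower and 16 higher. The targeted gene, Adgrb1, held 158, 140 and 117 CPM in the KO libraries, against 299, 363 and 317 CPM in the WT libraries, in the direction of the labels and with 42.3% of the WT level left in KO. Library totals ran from 19251607 to 20334442 counts in KO and from 17460090 to 18897340 in WT.

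The cultures expressed the markers of their labelled cell type and of oligodendrocytes as well. The 15 astrocyte markers summed to 49847 to 63566 CPM in KO libraries and 46134 to 51792 CPM in WT libraries. The 16 markers of mature oligodendrocytes summed to 14965 to 17708 CPM in KO and 12031 to 20197 CPM in WT. No marker of either list was at 0. Of the mature sums, Mbp alone held 8638 to 11989 CPM in KO and 4293 to 10077 CPM in WT, so they weigh this gene most. In bulk RNA, fewer cells of a type and less RNA per cell cannot be told apart.

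Most mature oligodendrocyte markers were also lower in the KO libraries, with exceptions among the most abundant. Their genotypes did not overlap for 12 of 16 markers, all lower in KO (5.87% of all genes tested were), and the list's median log2 fold change was -0.92, against 0.01 for all genes tested. Mal, a proteolipid of myelin membranes, stood at 427 ± 74.2 CPM in KO and 895 ± 208 CPM in WT, Ermn, a cytoskeletal protein of oligodendrocytes, at 77.3 ± 31.9 and 178 ± 27.6 CPM, and Ugt8a, which makes the myelin lipid galactosylceramide, at 53.7 ± 25.9 and 112 ± 21.1 CPM (log2 fold changes -1.07, -1.21 and -1.06). Aspa overlapped, at 26.0 ± 9.52 CPM in KO and 32.03 ± 3.95 CPM in WT. Mbp, which encodes myelin basic protein, was at 10710 ± 1811 CPM in KO and 7442 ± 2926 CPM in WT, and Mobp at 923 ± 110 and 832 ± 314 CPM (log2 fold changes 0.53 and 0.15). Without WT replicate 3 these were 0.25 for Mbp and -0.13 for Mobp, and without WT replicate 1 they were 0.81 and 0.35. Slc24a2 had a lower fold change than all 16 markers, Unc5b was passed by 1 marker, Plekhh1 by 3 and Chn2 by 5. The 4 genes were chosen on this contrast, which favours their low rank, so the order is a description only.

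Markers of earlier stages of the lineage had medians closer to 0. Of 13 markers of oligodendrocyte precursors, 7 were lower in KO with no overlap, against 5.87% of all genes, and the median log2 fold change was -0.58, from Tnr (-0.98 ± 0.39), Vcan (-0.83 ± 0.27) and Lhfpl3 (-0.83 ± 0.23) to Nkx2-2 (-0.23 ± 0.21), Sox10, a transcription factor of the lineage (-0.22 ± 0.15), and Ptprz1 (-0.18 ± 0.28). Of 11 markers of newly formed oligodendrocytes, 3 were lower with no overlap, against the same 5.87%, and the median was -0.24. Those 3 were Nfasc, whose glial form anchors myelin at the paranode, at 195 ± 15.9 CPM in KO and 315 ± 19.7 CPM in WT, Zfp488 (14.6 ± 0.76 and 25.1 ± 4.38 CPM) and Plxnb3 (46.3 ± 3.57 and 76.7 ± 9.68 CPM). Enpp6 had the lowest log2 fold change of the list (-1.33 ± 0.57) but overlapped, as did Bmp4 (-0.73 ± 0.52), Tcf7l2 (0.12 ± 0.21), Rras2 (0.33 ± 0.29) and Bcas1 (0.50 ± 0.30).

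Markers of other cell types were also detected. Neuronal markers summed to 259 to 273 CPM in KO libraries and 262 to 333 CPM in WT libraries, with a median log2 fold change of 0.11 over 12 tested genes, of which Elavl3 alone did not overlap (67.9 ± 6.54 CPM in KO and 103 ± 0.43 CPM in WT). Endothelial markers summed to 14.2 to 86.4 CPM in KO and 10.8 to 40.7 CPM in WT, with 0 of 11 free of overlap, a median of -0.42, and Tek, Emcn and Tie1 at 0 in WT replicate 1. Mural and fibroblast markers summed to 146 to 193 CPM in KO and 153 to 169 CPM in WT, with 1 of 8, Rgs5, lower without overlap and a median of -0.07. Microglial markers summed to 1678 to 2080 CPM in KO and 1943 to 2804 CPM in WT and had 4 of 14 lower in KO with no overlap (Cx3cr1, Csf1r, Tmem119 and Itgam), where 5.87% of all genes were, and a median of -0.33, and astrocyte markers 2 of 15 (Gfap and Atp1b2) higher with no overlap, where 5.28% of all genes were, and a median of 0.24. The part of any of these cells in the 4 genes' levels was not tested.

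**Figure D2:**
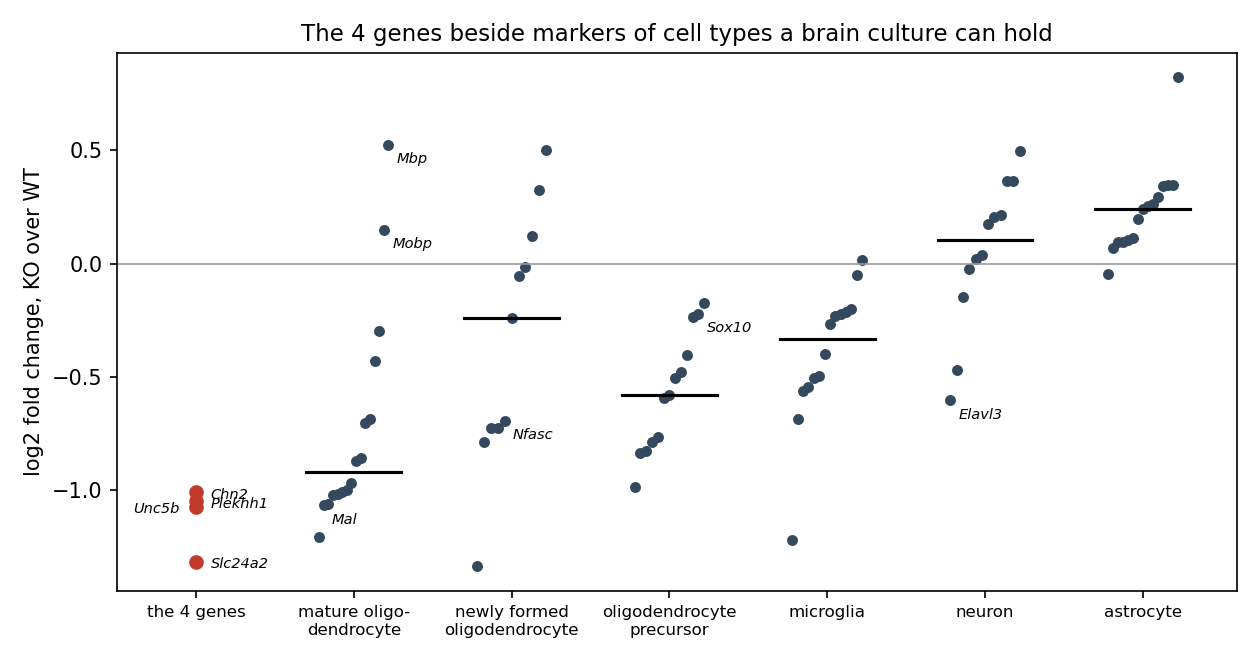
Log2 fold change, KO over WT (vertical axis), of the 4 genes and of the tested markers of 6 cell types, 1 point per gene, with a bar at each list's median. The 4 genes lie at -1.32 to -1.01, below the median of the mature oligodendrocyte markers (-0.92) and with Slc24a2 below all of those markers. Their choice on this contrast favours that low position. Mbp (0.53) and Mobp (0.15, but -0.13 without WT replicate 3) stand above 0.

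The level of each gene relative to the markers in the same library is given as a description, since it contains the KO and WT difference on which the 4 genes were picked, and that choice favours a lower ratio in KO. Relative to the mean log2 CPM of the 16 mature markers, Slc24a2 stood at -2.75, -2.82 and -2.76 in the KO libraries, against -1.95, -2.40 and -2.27 in the WT libraries, a difference of -0.57. The differences were -0.33 for Plekhh1, -0.36 for Unc5b and -0.27 for Chn2, each with no overlap between the genotypes. Relative to the list's median, which Mbp and Mobp move less, they were -0.08 for Plekhh1, -0.11 for Unc5b and -0.02 for Chn2, all with overlap, and -0.31 for Slc24a2, whose KO libraries (-2.59 to -2.46) still lay below its WT libraries (-2.42 to -1.92). The 3 smaller differences lay within the spread between libraries. The change to the median was made after the values of Mbp and Mobp were seen.

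Within a genotype each of the 4 genes had a positive correlation with the mature markers, but none of these correlations passed its test. The genes were picked by their KO and WT levels rather than by this variation. Earlier results of these data were known when they were picked, so full independence of the choice is not shown. After each genotype's mean log2 CPM was subtracted, Pearson's r with the mean of the 16 markers over the 6 libraries was 0.82 for Unc5b, 0.78 for Chn2, 0.76 for Slc24a2 and 0.66 for Plekhh1 (Spearman's rho 0.77, 0.54, 0.77 and 0.54). Two-sided exact permutation of libraries within genotypes gave p = 0.0556, 0.222, 0.222 and 0.194 for r (0.111, 0.528, 0.194 and 0.306 for rho), each 0.222 when adjusted by Benjamini-Hochberg over the 4 genes. The 36 arrangements allow no p under 0.0278, and no relation passed. The same measure over the other 14115 genes had a median of -0.02, with 2.88% of them at or above Unc5b, 3.94% at or above Chn2, 4.56% at or above Slc24a2 and 8.32% at or above Plekhh1.

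For Slc24a2 and Chn2 the relation rested on WT replicate 3, without which r was 0.11 for Slc24a2 and -0.25 for Chn2. Without KO replicate 1 r was 0.74 for Slc24a2 and 0.82 for Chn2. WT replicate 3 lay 0.30 below its genotype's mean for the markers, 0.36 below for Slc24a2, 0.31 below for Chn2, 0.22 below for Unc5b and 0.06 below for Plekhh1, on the log2 scale. KO replicate 1 and WT replicate 3 were the libraries whose marker deviations lay farthest from the median deviation. Without both, r was -0.12 for Slc24a2, -0.02 for Chn2, 0.49 for Unc5b and 0.78 for Plekhh1. For these values the deviations from the full genotype means were kept and centred on a single mean of the remaining libraries. They are therefore a different measure from the r without a single library, where genotype means were taken anew. KO replicate 2 was the highest KO library for the markers (0.14 above its mean) and for Slc24a2, Plekhh1 and Unc5b (0.09, 0.22 and 0.31), but not for Chn2 (0.07 below).

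**Figure D3:**
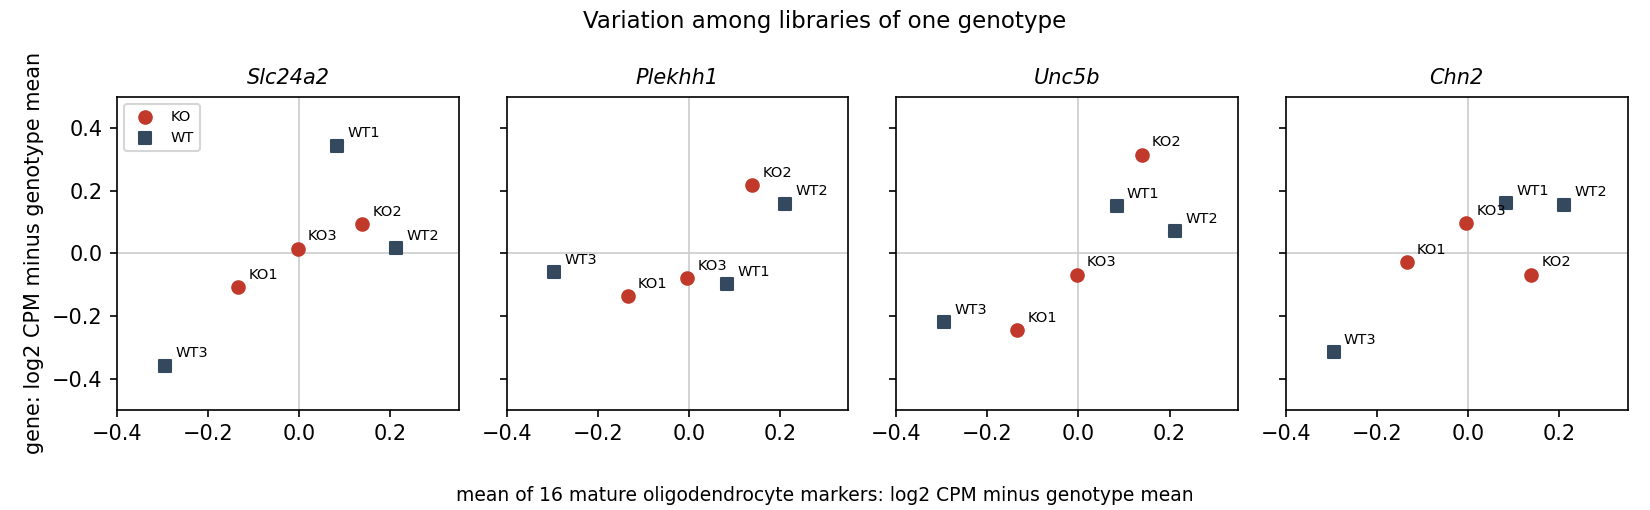
Deviation of each gene from its genotype's mean (vertical axis, log2 CPM) against that of the mean of 16 mature oligodendrocyte markers (horizontal axis, log2 CPM), 1 point per library with KO as circles and WT as squares. WT replicate 3 is the lowest library for the markers and for Slc24a2 and Chn2, and the relation of those genes leans on it.

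With markers of earlier lineage stages the signs differed. With the precursor markers the within-genotype r was -0.28 for Slc24a2, -0.88 for Plekhh1, -0.68 for Unc5b and -0.18 for Chn2. With those of newly formed oligodendrocytes it was 0.01, -0.68, -0.47 and 0.30. Without the 2 farthest libraries, measured as for the mature markers, the precursor values were -0.29, 0.75, -0.07 and -0.13 (KO replicate 2 and WT replicate 2 left out). The newly formed values were then 0.53, -0.61, 0.35 and 0.07 (KO replicates 2 and 3 left out). Other lists gave values of similar size. With the neuronal markers r was positive for all 4 genes, at 0.61 for Slc24a2, 0.37 for Plekhh1, 0.52 for Unc5b and 0.84 for Chn2. Without KO replicate 1 and WT replicate 3, the farthest here, the neuronal values were -0.60, -0.20, -0.88 and 0.62. Slc24a2 reached -0.92 with the microglial markers, and -0.48 without WT replicates 1 and 3, the farthest for those markers. The smallest adjusted exact permutation p over the 32 relations of 4 genes with 8 lists was 0.615. Mbp and Mobp, whose genotypes overlapped, had within-genotype r of 0.87 and 0.88 with Slc24a2, 0.74 and 0.84 with Chn2, 0.62 and 0.68 with Unc5b and 0.21 and 0.33 with Plekhh1.

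Among themselves the 4 genes varied to different degrees. The within-genotype r was 0.80 for Slc24a2 with Chn2, 0.74 for Slc24a2 with Unc5b, 0.72 for Plekhh1 with Unc5b and 0.42 for Unc5b with Chn2, but 0.14 for Slc24a2 with Plekhh1 and 0.07 for Plekhh1 with Chn2. Slc24a2 with Unc5b had the smallest exact permutation p, 0.0278, and 0.167 when adjusted over the 6 pairs.

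The genes most like each member were chosen by Pearson's r over the 6 libraries among 9674 named genes of at least 10 CPM, a likeness that is mostly the difference between the genotypes. For Slc24a2 they were Pip4k2a, a phosphoinositide kinase (r = 0.993), Atp9a, Litaf, Stk39 and Dock2, for Plekhh1 they were Thumpd1 (0.995), Fmnl1, Nfasc, Dusp15 and Ptprk, for Unc5b they were Slain1 (0.995), Larp6, Nfasc, Tprn and Tmem151a, and for Chn2 they were Dpy19l1 (0.983), Stk39, Tspan2, Slc12a2 and Vps4b. Nfasc was shared by Plekhh1 and Unc5b and Stk39 by Slc24a2 and Chn2. By the within-genotype measure the top genes were Zfp414 for Slc24a2, Ahcy for Plekhh1, Zfp180 for Unc5b and Ssbp2 for Chn2, and Pip4k2a again came among the top 5 of Slc24a2, and Nfasc and Slain1 among those of Unc5b. Nfasc held 181, 212 and 192 CPM in the KO libraries, against 328, 326 and 293 CPM in the WT libraries, with KO replicate 2 highest and WT replicate 3 lowest of their genotypes, as for Unc5b.

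The close relatives of the 4 genes mostly overlapped between the genotypes or stood higher in KO, with Plekhh2 and Unc5c lower. No gene of the table passed an adjusted p of 0.05 in edgeR, so this threshold does not separate the relatives and pathway genes below from the 4 genes. Among the other potassium-dependent exchangers, Slc24a3 stood at 42.3 ± 1.90 CPM in KO and 36.8 ± 6.04 CPM in WT and Slc24a4 at 14.5 ± 3.76 and 11.4 ± 4.28 CPM, and Slc24a1 and Slc24a5 had too few counts to test. Plekhh3 stood at 41.7 ± 8.61 CPM in KO and 27.5 ± 7.75 CPM in WT, and Plekhh2 at 2.61 ± 1.51 and 6.50 ± 1.15 CPM, with no overlap. Chn1, which encodes the related alpha-chimaerin, stood at 90.9 ± 0.86 CPM in KO and 82.6 ± 4.04 CPM in WT (log2 fold change 0.14 ± 0.13), so its libraries did not overlap in the direction opposite to Chn2. Among the netrin receptors Unc5c stood at 16.2 ± 4.43 CPM in KO and 24.5 ± 2.54 CPM in WT with no overlap, while Unc5a and Unc5d overlapped at means under 10 CPM.

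**Figure D4:**
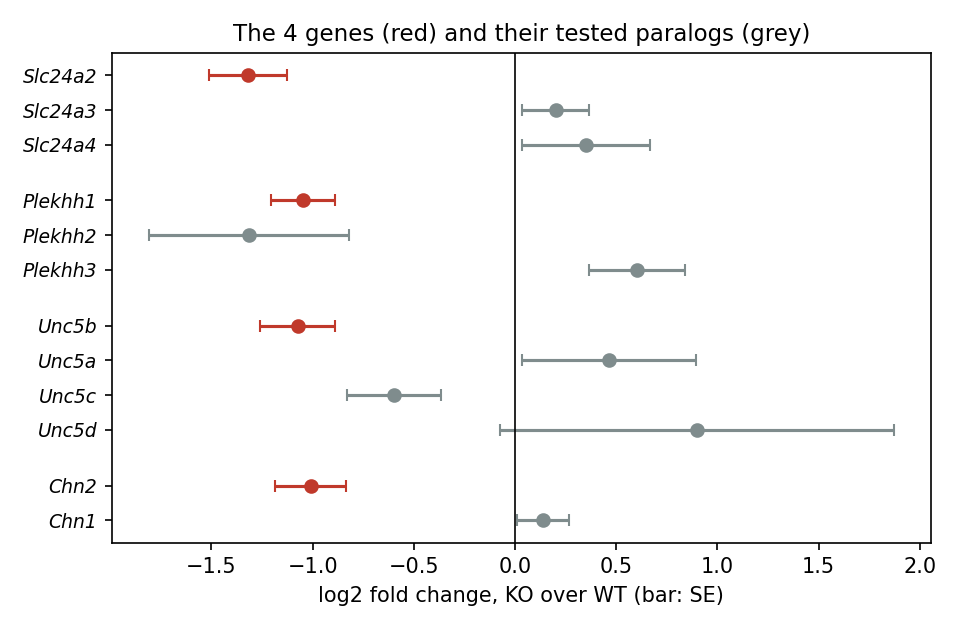
Log2 fold change, KO over WT, with SE (horizontal axis), of the 4 genes in red and their tested paralogs in grey. Slc24a3, Slc24a4, Plekhh3, Unc5a, Unc5d and Chn1 lie above 0, while Plekhh2 (-1.31) and Unc5c (-0.60) lie below it.

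Calcium removal, the process of Slc24a2, also runs through the sodium-calcium exchangers and the calcium pumps of the plasma membrane. Of 10 other tested genes of this list, 2 were lower in KO with no overlap and 0 higher, against 5.87% and 5.28% of all genes, and the median log2 fold change was -0.17. The 2 were exchangers, Slc8a1 at 16.2 ± 4.57 CPM in KO and 28.5 ± 5.16 CPM in WT and Slc8a3 at 6.80 ± 1.51 and 13.3 ± 2.93 CPM (log2 fold changes -0.82 ± 0.25 and -0.97 ± 0.28). The pumps overlapped, with Atp2b2 at 81.0 ± 6.36 CPM in KO and 84.5 ± 5.15 CPM in WT, Atp2b1 at 64.4 ± 18.9 and 77.8 ± 19.4 CPM and Atp2b4 at 30.4 ± 8.34 and 31.9 ± 7.08 CPM. Slc8b1, the mitochondrial exchanger, stood at 80.0 ± 10.1 CPM in KO and 68.3 ± 16.2 CPM in WT.

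Netrin receptors, ligands and their partners, the list around Unc5b, had 2 of 18 tested genes lower and 2 higher with no overlap, against 5.87% and 5.28% of all genes, and a median log2 fold change of -0.03, so both counts were near the background. Besides Unc5c, Dscam, a cell adhesion molecule that binds netrin, was lower at 29.2 ± 3.62 CPM in KO and 51.3 ± 14.1 CPM in WT. The higher ones were Ntng1 (1.07 ± 0.43 CPM in KO and 0.45 ± 0.10 CPM in WT) and Ntng2 (10.1 ± 1.79 and 7.14 ± 1.31 CPM), which encode membrane-anchored netrins. Netrin-1 itself (Ntn1) was at 48.6 ± 9.85 CPM in KO and 54.5 ± 2.88 CPM in WT, Neo1 at 194 ± 19.6 and 208 ± 14.2 CPM, Rgma at 380.3 ± 72.6 and 328 ± 41.3 CPM and Flrt1 at 52.9 ± 4.89 and 51.5 ± 11.002 CPM, all with overlap. Dcc, a netrin receptor, held 9.11, 12.5 and 16.2 CPM in the KO libraries, against 12.2, 11.2 and 22.7 CPM in the WT libraries, also with overlap.

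Rac and the proteins that switch it off, the list around Chn2, had 1 of 14 tested genes lower with no overlap, Srgap2 (89.0 ± 5.79 CPM in KO and 102 ± 5.96 CPM in WT), 1 higher, Chn1, and a median log2 fold change of 0.09. These counts were close to the 5.87% lower and 5.28% higher of all genes and are not a result about the list. Rac1 stood at 299.5 ± 27.5 CPM in KO and 314 ± 25.8 CPM in WT, Abr at 580.0 ± 86.4 and 491 ± 22.7 CPM, Srgap3 at 235 ± 44.8 and 209 ± 56.3 CPM and Bcr at 105 ± 7.37 and 94.6 ± 14.05 CPM. The myosins that carry MyTH4 and FERM domains like Plekhh1 also overlapped, with Myo10 at 294 ± 7.73 CPM in KO and 261 ± 42.8 CPM in WT and Myo7a at 24.0 ± 1.03 and 23.3 ± 1.05 CPM. Of the 4 tested genes of that list, Plekhh2 was the 1 lower without overlap, and the median log2 fold change was 0.11.

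The libraries carried a trend with GC content that split both genotypes. The trend was above 0 in KO replicates 1 and 2 and WT replicate 2 (Spearman's correlation of deviation with GC content across genes 0.388, 0.355 and 0.056) and below 0 in KO replicate 3 and WT replicates 1 and 3 (-0.394, -0.160 and -0.334). The difference in log2 CPM between KO and WT libraries within the first set, with 1 WT library, and the second set, with 1 KO library, was -1.31 and -1.27 for Slc24a2, -1.17 and -1.05 for Plekhh1, -1.12 and -1.12 for Unc5b and -1.20 and -0.82 for Chn2. For the mean of the mature markers it was -0.93 and -0.62. The 4 transcripts lie on both sides of the median GC content, at 44.0% GC for Slc24a2, 45.2% for Chn2, 52.7% for Plekhh1 and 58.7% for Unc5b, where the median of the genes tested was 49.8%. With the trend in GC content and length removed per library, the log2 fold changes were -1.11 for Slc24a2, -1.06 for Plekhh1, -1.12 for Unc5b and -0.92 for Chn2. The within-genotype r of Slc24a2 was then 0.49 with Unc5b, 0.89 with Chn2 and 0.33 with Plekhh1. It was 0.64 for Plekhh1 with Unc5b, 0.39 for Unc5b with Chn2 and 0.18 for Plekhh1 with Chn2.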

How the data were processed

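Poly-A RNA of cultured mouse astrocytes was sequenced as 3 KO and 3 WT libraries, and the authors deposited 1 table of estimated counts per gene symbol, not normalized. Per the submitters' processing notes the tools were TopHat2 and featureCounts, and the builds GRCm38 and mm9, whose roles stay unnamed. Annotation, strand setting and treatment of shared reads were not given in the sources used here. A fraction of a count (tolerance 0.01) stood in 0.711% to 0.847% of each library's values, and the counts were rounded.

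Columns were matched to libraries by name and grouped by genotype. Replicates differed far beyond sampling noise (chi-square per degree of freedom 22.3 to 89.1), so each counted as 1 sample. KO was compared with WT over 14131 genes kept by filterByExpr, with the quasi-likelihood test of edgeR 4.0.16 in R 4.3.3, TMM, and Benjamini-Hochberg adjustment at 0.05. Log2 CPM used a prior count of 2. The test was tried on simulated data, where it recovered 39.7% of genes lowered 2-fold in KO and 82% of those lowered 4-fold. A difference of 2-fold can therefore be present in a gene that does not pass. Of 24318 symbols, 98.5% matched GENCODE M21 (GRCm38). Named genes are the 4 genes, Adgrb1, paralogs and up to 4 other genes of highest CPM in each of 4 family lists, the 3 lowest and 3 highest log2 fold changes of each oligodendrocyte list, genes with overlapping exons, and the 5 genes of at least 10 CPM most alike by each measure, without predicted genes. Plxnb3, Elavl3, Slc8a1, Slc8a3, Dscam, Dcc, Ntng1, Ntng2, Srgap2, Tek, Emcn, Tie1, Rgs5, Cx3cr1, Csf1r, Tmem119, Itgam, Gfap and Atp1b2 fall outside this rule and were chosen after their values were seen. The members, lists and tests were chosen with earlier results of these data known. One mature oligodendrocyte marker enters counts and means and is not reported by name here. Alternatives were RLE factors, total counts, no low-count filter, DESeq2 1.42.0, the replicate number as a block, the GC and length trend removed by natural splines with 4 degrees of freedom or as a batch term, other marker lists, a prior count of 0.5, Spearman's rho, the list's median, and leaving out each library.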

Additional observations from a re-analysis of the deposited data

How the results depend on the processing

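The log2 fold changes of the 4 genes were below 0 under every alternative run, from -1.48 to -1.11 for Slc24a2, -1.17 to -0.98 for Plekhh1, -1.25 to -0.97 for Unc5b and -1.15 to -0.92 for Chn2. Over the fits that left out 1 library they ran from -1.48 to -1.13, -1.17 to -0.98, -1.25 to -0.97 and -1.15 to -0.93. The medians of the mature, newly formed and precursor lists ran from -1.004 to -0.76, -0.35 to -0.17 and -0.65 to -0.48 over those fits.

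The number of genes lower and higher in KO, 0 and 0 with all libraries, was 4 and 2 without the filter on low counts, 62 and 16 by DESeq2, 12 and 3 after removal of the trend in GC and length, and 74 and 14 when a batch term held the sign of the GC trend. Over the fits without 1 library it ran from 0 to 27 lower (27 without KO replicate 3, 1 without WT replicate 1) and from 0 to 4 higher (4 without KO replicate 3). It was 0 and 0 with RLE factors and total counts. With the replicate number as a block it was 37 lower and 7 higher, and the 4 genes were at -1.29, -1.05, -1.08 and -0.996 with this pairing. Deviations of same-numbered libraries correlated at 0.0873, 0.150 and 0.284, and each library correlated best with its own number. The first value is under 0.1, so the numbers were not taken as pairs. The permutations within genotypes likewise treated same-numbered libraries as unlinked, and whether they are linked was not settled.

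The difference in ratio to the mature markers ran from -0.67 to -0.44 for Slc24a2, -0.42 to -0.21 for Plekhh1, -0.45 to -0.31 for Unc5b and -0.33 to -0.17 for Chn2 without 1 library. With the list's median, chosen after seeing the data, it was -0.31, -0.077, -0.11 and -0.018. With the newly formed list it was -0.92, -0.68, -0.71 and -0.62, with the precursor list -0.41 for Chn2, and with the GC and length trend removed -0.38 for Slc24a2.

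The within-genotype correlations changed sign with the precursor list (-0.28 for Slc24a2, -0.88 for Plekhh1, -0.68 for Unc5b, -0.18 for Chn2) and with the newly formed list for Plekhh1 (-0.68) and Unc5b (-0.47). Without 1 library they ran from 0.11 to 0.998 for Slc24a2, 0.47 to 0.94 for Plekhh1, 0.80 to 0.92 for Unc5b and -0.25 to 0.97 for Chn2, where -0.25 was without WT replicate 3. The cause of these changes was not tested. Low counts limit the values of the genes at a few CPM or less, among them Ntng1, Unc5d, Tek, Emcn and Tie1.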
